A study of Mus musculus with 4 samples.

Results

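The Ccr2-expressing macrophages of the mouse left ventricle described here are 182 of 11148 cardiac leukocytes, 149 of 7030 from DOCA-salt mice and 33 of 4118 from sham mice. They were chosen by summed UMIs (unique molecular identifiers, 1 per captured RNA molecule) in each cell. A member had 8 or more UMIs of the C1q genes C1qa, C1qb and C1qc, and 1 or more of Ccr2. It had no more than 1 Trem2 UMI, 2 UMIs of the resident macrophage genes Folr2, Lyve1, Timd4 and Cd163 together, 2 of the B cell genes Cd79a, Cd79b and Ms4a1, and 1 of the T cell genes Cd3e, Cd3d and Cd3g. The members therefore carry Ccr2 and C1q and lack most of the transcripts that mark Trem2-bearing and resident macrophages. Those genes and the numbers of members are a consequence of the rule and are given as a description.

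The DOCA-salt group consisted of 4 C57Bl6J mice given deoxycorticosterone acetate (DOCA, a mineralocorticoid) with salt, a model of hypertension. The sham group consisted of 4 C57Bl6J mice that served as controls. Hearts of both groups were perfused, the left ventricle was digested, and live CD45+ cells were enriched, labelled with antibodies and sorted, so both groups hold leukocytes only. The dose, the length of treatment, and the age and sex of the mice are not given in the sources used here. Each group was pooled into 1 droplet library, in which 4 hashtag antibodies told the mice apart.

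Macrophages are tissue phagocytes that present antigen, clear dying cells and shape the matrix around them. In the mouse heart, resident macrophages seeded before birth are maintained largely without blood monocytes and lack Ccr2, the receptor for the chemokine Ccl2. Macrophages that carry Ccr2 are known to be replenished by circulating monocytes, which use Ccr2 to leave the bone marrow.

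Group and library coincide in this design, so a difference between DOCA-salt and sham cells and a difference between the 2 libraries cannot be told apart. The assigned cells of a mouse held 2826734 to 9330819 RNA UMIs in the DOCA-salt library and 1799791 to 4117899 in the sham library. In all, 41 cell barcodes occurred in both libraries, and 1 DOCA-salt member and 0 sham members had such a barcode. The members numbered 67, 30, 10 and 42 in DOCA-salt mice 1 to 4, against 4, 16, 4 and 9 in sham mice 1 to 4. Their summed RNA ranged from 29573 to 406736 UMIs a DOCA-salt mouse and from 9265 to 61259 UMIs a sham mouse. In sham mouse 3 a single UMI is worth 108 CPM (counts per 1000000 RNA UMIs of the class in that mouse), so low genes could not be measured there. The doublet caller marked 4 DOCA-salt and 1 sham members.

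Ccr2 itself (chr9:124101950-124113557, plus strand, mm10) was present at a median of 4 UMIs a member in DOCA-salt mice, with a range of 1 to 22, and at a median of 2 with a range of 1 to 14 in sham mice. Its summed level was 929, 1009, 1319 and 1134 CPM in the DOCA-salt mice, against 1012, 930.5, 1079 and 453 CPM in the sham mice. The groups overlap, and these levels are set in part by the requirement of 1 UMI. C1qa (chr4:136895917-136898803, minus strand), which encodes a chain of the complement component that binds antibody and dying cells, averaged 4419 ± 1030 CPM in DOCA-salt and 4325 ± 1614 CPM in sham members (SD, n = 4 mice each). The C1q sum had a median of 49 UMIs a cell in DOCA-salt and 33 in sham members. H2-Aa (chr17:34282744-34287823, minus strand), a chain of the class II molecule that presents peptides to CD4 T cells, was not used by the rule. It stood at 8325, 8679, 12985 and 14070 CPM in DOCA-salt members, against 8272, 11345, 17485 and 12677 CPM in sham members. H2-Aa was absent from 12 DOCA-salt members and 1 sham member, so most members in either group carried it.

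At the edge of the rule, 29 DOCA-salt and 13 sham members had exactly 1 Ccr2 UMI, and 168 DOCA-salt and 156 sham cells fell just outside with 0. Csf1r, the receptor for the macrophage growth factor, was detected in 79.3% of the DOCA-salt and 76.9% of the sham members with 1 Ccr2 UMI. Among the cells with 0 it was detected in 82.1% of DOCA-salt and 89.7% of sham cells. For C1q, 14 DOCA-salt and 3 sham members had 8 to 10 UMIs, and 21 and 5 cells with 5 to 7 UMIs fell outside. For Trem2, 57 DOCA-salt and 12 sham members had 1 UMI, and 38 and 4 cells with 2 UMIs fell outside. For the resident genes, 7 DOCA-salt and 1 sham members had a sum of 2, and 9 and 0 cells with a sum of 3 fell outside.

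The label of macrophage was checked against markers. All 9 genes of the macrophage list, of which 3 are the C1q genes of the rule, had UMIs in the members of both groups, including Csf1r in 92.6% of DOCA-salt and 90.9% of sham members and Adgre1, which encodes F4/80, in 69.8% of DOCA-salt and 57.6% of sham members. In B cells (10 or more UMIs of the B cell genes), which should lack both, Csf1r was detected in 6.62% of DOCA-salt and 5.57% of sham cells and Adgre1 in 3.76% of DOCA-salt and 3% of sham cells. Median depths were 3961 UMIs in DOCA-salt and 3179 in sham members, against 3093 and 2763 in DOCA-salt and sham B cells. C1q itself was less clean as a marker, since 47.7% of DOCA-salt and 41.0% of sham B cells had at least 1 C1q UMI and 2.79% and 3.96% had 8 or more. The summed level of the 9 macrophage genes ranged from 13540 to 21118 CPM in DOCA-salt members and from 6665 to 19428 CPM in sham members. In the macrophages with 0 Ccr2 UMIs that met every other condition, called Ccr2-zero here, it ranged from 22100 to 26708 CPM in DOCA-salt and from 24061 to 28741 CPM in sham cells. The sum of the 9 genes was thus lower in the members in every mouse. Most of it came from C1qa, C1qb and C1qc, which the rule used and which averaged 4372, 5023 and 3525 CPM in the members. Members with NK cell genes, described below, are part of it too. Timd4, a resident marker that the rule itself limits, was at 0 in both groups.

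Some members also carried transcripts of another lineage. At least 3 UMIs of the NK cell genes Nkg7, Klrb1c, Ncr1, Gzma and Klre1 were found in 11 of 149 DOCA-salt members (7.38%) and in 6 of 33 sham members (18.2%). These cells had at least 17 such UMIs in DOCA-salt and 25 in sham mice, while no other member exceeded 2 and 1. They bound 521 UMIs of the NK1.1 antibody a cell in DOCA-salt and 469 in sham mice, against 88.2 and 93.0 UMIs for the other DOCA-salt and sham members, and their C1q level was 3544 and 4305 CPM against 14554 and 16378 CPM. They stand apart from the other members on NK and C1q RNA and on NK1.1 antibody. Their CD64 antibody was near that of the other members. It stood at 1072 against 987 UMIs a cell in DOCA-salt and at 919 against 1044 in sham mice. Csf1r stood at 583 and 283 CPM in them, against 1403 and 1902 CPM. Their median depth was 8153 and 5243 UMIs, against 3724.5 and 2746. Their NK genes go against the macrophage label, and whether they are NK cells, macrophages or both in 1 droplet was not tested. They are left out in an added alternative, called without NK-bearing cells. Sham mouse 4 supplied 4 of the 6 sham cells. Conventional dendritic cell genes (2 or more UMIs of Cd209a, Flt3, Klrd1 and Kmo, of which Klrd1 is also an NK cell gene) were carried by 23 DOCA-salt members (15.4%) and 8 sham members (24.2%). Classical monocyte genes (2 or more UMIs of Ly6c2, Chil3, Plac8 and Vcan) were carried by 25 DOCA-salt members (16.8%) and 3 sham members (9.09%). The overlap of cells carrying dendritic or monocyte genes with the NK-bearing cells was not counted. Leaving the former out may remove NK-bearing cells too. Among Ccr2-zero cells NK, dendritic and monocyte genes were carried by 7.14%, 5.36% and 7.74% in DOCA-salt and 5.13%, 3.85% and 3.21% in sham. Among Trem2-bearing macrophages (2 or more Trem2 UMIs) the shares were 2.60%, 2.60% and 14.6% in DOCA-salt and 3.57%, 7.14% and 7.14% in sham.

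Summed over 8 classical monocyte markers, the members ranged from 67.6 to 1229 CPM in DOCA-salt mice and from 108 to 879 CPM in sham mice, with Chil3, Vcan and F10 at 0 in sham. The 8 markers of type 2 conventional dendritic cells summed to 742 to 1217 CPM in DOCA-salt and 930.5 to 1835 CPM in sham members. Mgl2, which is among them, averaged 818 CPM over the members of the 8 mice. Pooled over mice the sum was 873 CPM in DOCA-salt and 1089 CPM in sham members. It was 661 and 1016 CPM in Ccr2-zero cells, and 1229 and 1849 CPM in resident-type macrophages (3 or more UMIs of the resident genes). In Trem2-bearing macrophages it was 365 and 797 CPM. Neutrophil markers summed to 73.5 to 457 CPM in DOCA-salt and 0 to 16.3 CPM in sham members, with S100a8 and S100a9 at 0 in sham. This difference was not particular to the members. In Ccr2-zero cells the neutrophil markers summed to 407 to 18607 CPM in DOCA-salt and 20.2 to 82.9 CPM in sham mice. In Trem2-bearing cells they summed to 47.9 to 741 CPM in DOCA-salt and 0 to 40.3 CPM in sham mice. The part of these transcripts in the differences between the groups was not tested.

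Ccr2-expressing macrophages made up a larger part of the macrophages in DOCA-salt hearts in every mouse, but the difference did not pass the threshold after adjustment over the 2 planned shares. They were 21.1%, 18.2%, 18.5% and 28% of the C1q macrophages (all cells meeting the C1q, B cell and T cell conditions) in the DOCA-salt mice, against 12.5%, 17.4%, 7.14% and 8.91% in the sham mice. The means were 21.5% ± 4.56 in DOCA-salt and 11.5% ± 4.52 in sham mice (SD, n = 4 each), a difference of 9.97 percentage points. The groups do not overlap, and a two-sided exact permutation test over mice gave p = 0.0286, the smallest that 4 against 4 mice can give, and 0.0571 after Benjamini-Hochberg adjustment over 2 shares. As a share of all leukocytes they were 3.03%, 1.57%, 1.28% and 1.97% in DOCA-salt mice, against 0.407%, 1.31%, 0.638% and 0.697% in sham mice. Here DOCA-salt mouse 3 lies just below sham mouse 2, and the exact permutation p was 0.0571 (adjusted 0.0571).

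**Figure D1:**
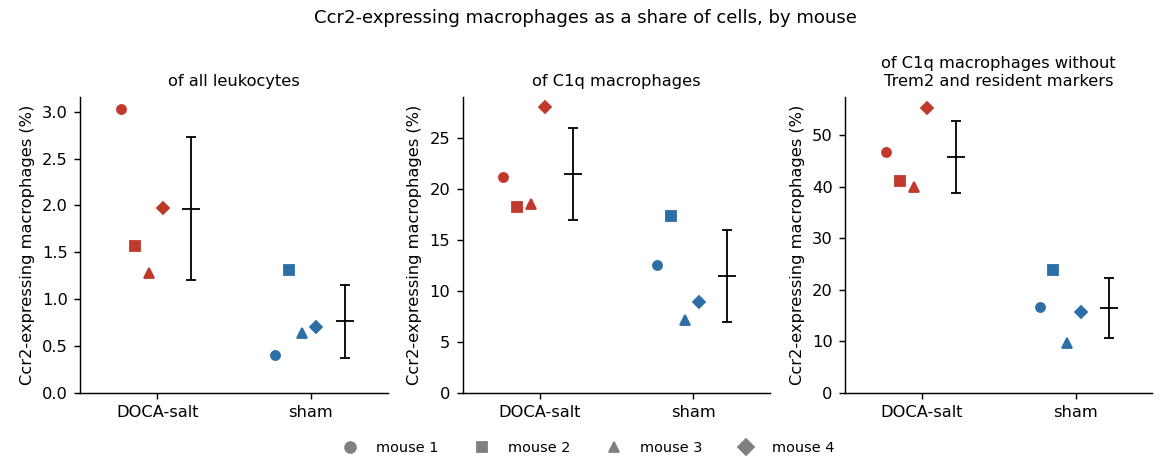
Share of Ccr2-expressing macrophages among all leukocytes, among C1q macrophages, and among macrophages without Trem2 and resident markers, in percent on each vertical axis. Each point is a mouse, bars are the mean and SD of 4 mice, and the DOCA-salt points lie above every sham point in the middle and right panels.

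Another share was added after the data were seen. Among macrophages with few or no Trem2 and resident marker UMIs, cells with Ccr2 were 46.9%, 41.1%, 40% and 55.3% in DOCA-salt mice, against 16.7%, 23.9%, 9.76% and 15.8% in sham mice. The difference of 29.3 percentage points is larger than the range within either group, and the exact permutation p was 0.0286. Adjusted over all 3 shares, this share and the share of C1q macrophages would each have 0.0429, so whether the C1q share passes depends on counting a share that was chosen after the data were seen; no call is made for either. Depth moved with this measure, since members had a median of 3961 UMIs in DOCA-salt and 3179 in sham mice. Every cell was then thinned to 2000 UMIs, which left out 96 of 317 DOCA-salt and 81 of 189 sham cells. For choosing cells only Ccr2 was counted after thinning, here and in the gene tests at fixed depth. The C1q, Trem2, resident, B cell and T cell limits were applied to the full counts, so they still varied with depth. The added share then averaged 43.1% in DOCA-salt and 17.0% in sham mice (exact permutation p = 0.0571). The thinned share of C1q macrophages averaged 17.8% in DOCA-salt and 10.6% in sham mice (exact permutation p = 0.257). Without the members that carried NK cell genes the 3 shares averaged 1.83%, 21.2% and 46.2% in DOCA-salt mice, against 0.641%, 9.84% and 14.2% in sham mice, each with an exact permutation p of 0.0286.

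A Ccr2 UMI was found in 43.4% of all C1q macrophages of DOCA-salt mice (298 of 686, exact 95% interval 39.7% to 47.2%) and in 15.7% of those of sham mice (44 of 281, 11.6% to 20.4%). B cells, which should lack Ccr2, had one in 4.71% of DOCA-salt cells (140 of 2975, median 3093 UMIs) and in 1.61% of sham cells (37 of 2300, median 2763 UMIs), against medians of 3981.5 and 3114 UMIs in DOCA-salt and sham C1q macrophages. The macrophage shares lie above the B cell shares in both groups, and the DOCA-salt share is the higher one in B cells too. Trem2-bearing macrophages, with 2 or more Trem2 UMIs, had a Ccr2 UMI in 66.1% of DOCA-salt and 28.6% of sham cells. Resident-type macrophages, with 3 or more UMIs of Folr2, Lyve1, Timd4 and Cd163, had one in 13.9% of DOCA-salt and 4.26% of sham cells. These intervals cover counting error only.

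Within the same mice, the members differed from the Ccr2-zero macrophages in 101 of 1383 genes tested. In the S100 and motility list 7 of 11 genes tested were higher in the members, while in the growth factor and matrix list 5 of 7 and among the resident markers 3 of 4 were lower. Of the genes tested, 26 (1.88%) were higher and 75 (5.42%) were lower at an adjusted p under 0.05 (edgeR quasi-likelihood test with the mouse as a block, 8 mice). Leaving out DOCA-salt mouse 1, 2, 3 or 4 left 13, 9, 14 or 7 genes higher, and leaving out sham mouse 1 or 2 left 15 or 11. The genes lower numbered 35, 42 and 42 without DOCA-salt mouse 1, 2 or 4. Without NK-bearing cells 25 genes were higher and 58 lower. Without cells carrying dendritic or monocyte genes 3 of 1111 genes tested were higher and 19 lower. At a fixed depth of 2000 UMIs 3 of 422 were higher and 5 lower.

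Emb (chr13:117208536-117274415, plus strand), which encodes embigin, a membrane glycoprotein that partners a monocarboxylate transporter, had 194, 256, 372 and 126 CPM in DOCA-salt members and 179, 114, 108 and 107 CPM in sham members. Ccr2-zero cells of the same mice had 36.4, 84.4, 245 and 62.5 CPM in DOCA-salt and 40.3, 23.8, 31.1 and 30.9 CPM in sham mice. The members were higher in 8 of 8 mice, by 1.65 on the log2 scale (adjusted p = 4.3e-04). S100a10 (chr3:93555080-93564643, plus strand), the partner of annexin A2 at the membrane, averaged 677 CPM in members and 233 CPM in Ccr2-zero cells, a log2 difference of 1.39 (adjusted p = 5.1e-04). Also higher in every mouse were the chemokine gene Ccl6 (1113 and 625 CPM, log2 difference 0.78), Dbi, which encodes an acyl-CoA binding protein (329 and 170 CPM, 0.74), and Emp3, a membrane protein gene (664 and 423 CPM, 0.55).

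Of the S100 and motility list, 7 of the 11 genes tested were higher and 0 lower, with a median log2 difference of 0.72 against -0.00 over all genes tested. Beside S100a10 these were S100a6 (1.33), Anxa2 (1.31), the intermediate filament gene Vim (1.12), Tmsb10 (0.85), Ahnak (0.61) and Emp3. The count of genes higher was 5 without the NK-bearing cells, and 3 both without cells carrying dendritic or monocyte genes and at a fixed depth of 2000 UMIs. Other genes higher in the members were Socs3, a feedback inhibitor of cytokine signalling (1.05), the chemokine gene Ccl9 (1.04), Lgals3, which encodes galectin-3 (0.98), the actin capping gene Capg (0.87) and Ldha (0.75), of lactate production.

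**Figure D2:**
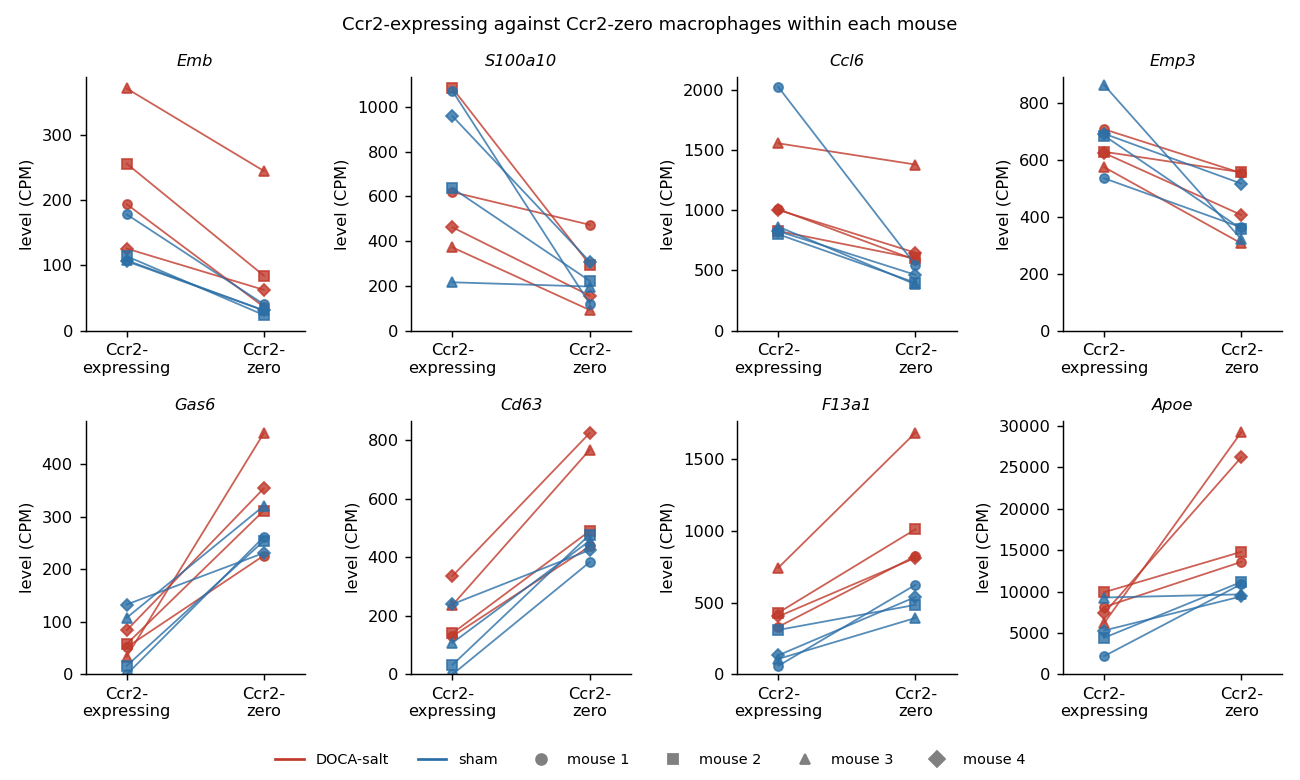
Levels in CPM of 4 genes higher in the members (Emb, S100a10, Ccl6, Emp3) and 4 lower (Gas6, Cd63, F13a1, Apoe). Each line joins the Ccr2-expressing macrophages (left) and the Ccr2-zero macrophages (right) of a mouse, with DOCA-salt in red and sham in blue, and for each gene the lines run the same way in all 8 mice.

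The gene with the largest difference among those lower was Gas6 (chr8:13465374-13494490, minus strand), which encodes a bridging ligand for the uptake of dying cells. It had 51.6, 57.9, 33.8 and 84.0 CPM in DOCA-salt members and 0, 16.3, 108 and 133 CPM in sham members. Ccr2-zero cells had 226, 312, 459.8 and 354 CPM in DOCA-salt and 262, 254, 321 and 231 CPM in sham mice. The levels of the 2 classes do not overlap, and the log2 difference was -2.27 (adjusted p = 3.06e-05). Apoe, the lipid carrier, had 8136, 9920, 6188 and 7379 CPM in DOCA-salt and 2202, 4424, 9282 and 5300 CPM in sham members, against 13580, 14797, 29243 and 26208 CPM and 10904, 11160, 9665 and 9419 CPM in the DOCA-salt and sham Ccr2-zero cells. The log2 difference was -1.26. The lysosomal membrane gene Cd63 averaged 153 CPM in members and 532 CPM in Ccr2-zero cells (-1.76, adjusted p = 9.3e-05).

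Of the growth factor and matrix list, 5 of 7 genes tested were lower and 0 higher, with a median log2 difference of -0.83. They included Gas6, the growth factor gene Igf1 (-1.82), the collagenase gene Mmp13 (99.5 and 253 CPM, -2.16), Timp2 (-0.83) and Grn (-0.52). In the lipid and lysosome list 5 of 14 were lower and 1 was higher, with a median of -0.54. The scavenger receptor gene Cd36 (-1.11) and the cathepsin gene Ctsb (-0.94) were among those lower, and Lgals3 was the one higher. Of the chemokine list, 4 of 7 were lower, which were Pf4 (555 and 1278 CPM, -1.37), Ccl12 (-1.29), Cxcl2 (-1.25) and Cxcl16 (-1.02), while Ccl6 and Ccl9 were higher. In the complement list 3 of 5 were lower, including the receptor genes C5ar1 (-1.03) and C3ar1 (-0.70). Without NK-bearing cells the genes lower were 4 of 7 in the matrix list, 3 of 14 in the lipid and lysosome list, 3 of 6 in the chemokine list and 2 of 5 in the complement list. Without cells carrying dendritic or monocyte genes the counts, in the same order, were 3 of 7, 3 of 14, 1 of 7 and 2 of 5. At a fixed depth of 2000 UMIs 3 genes of the matrix list could be tested, with a median of 0.12, and 0 were lower. There 3 of 7 lipid and lysosome, 0 of 3 chemokine and 0 of 3 complement genes were lower.

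Of the resident macrophage markers that the rule did not use, 3 of 4 were lower, Cbr2 (-1.44), Pf4 and F13a1 (315 and 797 CPM, -1.29), and Mrc1 did not pass (-0.58). The macrophage markers Cd68 (-0.73), Adgre1 (-0.69) and Csf1r (-0.63) were lower too, 3 of the 5 tested. Without NK-bearing cells 3 of the 4 resident markers and 2 of the 5 macrophage markers were lower. Without cells carrying dendritic or monocyte genes these counts were 3 of 4 and 0 of 5 (medians -1.25 and -0.45). At a fixed depth of 2000 UMIs they were 0 of 3 and 0 of 4 (medians -0.55 and -0.36). Other genes lower in all 8 mice were Clec4n (-1.76), a fungal pattern receptor, Blvrb (-1.49), of haem breakdown, the costimulatory gene Cd86 (-1.45), St3gal6 (-1.22), Igfbp4 (-1.21) and Lilra5 (-1.15).

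Most antigen presentation genes did not pass between these classes. H2-Aa averaged 11730 CPM in members, and its log2 difference was 0.08 (SE 0.14, adjusted p = 0.859). In the MHC class II list 1 of 7 genes was higher, Ciita, the master regulator of class II transcription (0.81), all 7 lay above 0, and the median was 0.16. Without NK-bearing cells 2 of 7 were higher and the median was 0.29. Cx3cr1 (-0.11), the fractalkine receptor of monocytes and macrophages, did not pass. Of the 13 early response genes 0 passed in either direction, with a median of 0.12, which was -0.22 (2 of 13 above 0) without cells carrying dendritic or monocyte genes. In the Fc and pattern receptor list 4 of 15 were lower (median -0.12; 2 of 15 without NK-bearing cells), and in the glycolysis list 1 of 8 was higher (median 0.37).

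The levels were also followed over the number of Ccr2 UMIs in a cell, as a description, since depth rises with that number (medians of 2439, 2603, 2735.5 and 5029 UMIs at 0, 1, 2 and 3 or more in DOCA-salt mice). Gas6 stood at 287, 140, 49.7 and 47.6 CPM in DOCA-salt cells with 0, 1, 2 and 3 or more Ccr2 UMIs, and at 264, 80.5, 0 and 49.4 CPM in sham cells. Emb stood at 66.8, 140, 124 and 213 CPM in DOCA-salt cells and at 29.9, 101, 69.3 and 148 CPM in sham cells. For both genes the cells with 1 Ccr2 UMI lay between the cells with 0 and those with 3 or more. Apoe stood at 17356, 9230, 18462 and 6500 CPM in DOCA-salt cells and at 10207, 6380, 5132 and 3324 CPM in sham cells. In DOCA-salt mice its cells with 1 Ccr2 UMI lay between as well, while those with 2 lay above the cells with 0. In sham mice Apoe fell at each step, with 6 cells at 2 Ccr2 UMIs. None of these genes changed steadily with the number of Ccr2 UMIs in both groups.

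Against resident-type macrophages 4 of 6 class II genes and 6 of 10 early response genes were higher in the members, and 4 of 4 further resident markers were lower. Of 672 genes tested, 60 (8.93%) were higher and 88 (13.1%) were lower. The counts were 35 and 50 without DOCA-salt mouse 1, 21 and 52 without DOCA-salt mouse 2, 38 and 75 without DOCA-salt mouse 4, and 31 and 82 without sham mouse 2. Without NK-bearing cells they were 40 and 85, without cells carrying dendritic or monocyte genes 26 and 36, and at fixed depth 15 and 16. Since the resident-type cells were chosen on resident genes, the lower level of related genes is a description of that choice. Among these, Gas6 averaged 60.6 CPM in members and 662 CPM in resident-type cells (log2 difference -3.39), Cbr2 126 and 1560 CPM (-3.27), F13a1 315 and 2127 CPM (-2.56) and the scavenger receptor gene Stab1 226 and 1005 CPM (-2.05). Also lower were Pf4 (-2.36), Igfbp4 (-2.20), the Fc receptor gene Fcgrt (-1.94), Cd63 (-1.79), Blvrb (-1.78), the selenium carrier gene Selenop (-1.72), Timp2 (-1.69), the transcription factor gene Maf (-1.68) and the mannose receptor gene Mrc1 (-1.50).

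H2-Aa averaged 11730 ± 3253 CPM in members and 6940 ± 3807 CPM in resident-type cells (SD, n = 8 mice), a log2 difference of 0.83 (adjusted p = 0.0203). Sham mouse 3 had 17485 CPM in its members and 12765 CPM in its resident-type cells, and sham mouse 1, with 2 resident-type cells, had 8272 and 1303 CPM. In the class II list 4 of 6 genes were higher and 0 lower, with a median of 0.80 against 0.01 over all genes. These were H2-Aa, H2-Ab1 (0.81), H2-Eb1 (0.80) and H2-DMb1 (0.80), and 4 were also higher without NK-bearing cells, without cells carrying dendritic or monocyte genes, and at fixed depth. Of the early response genes, which follow stimulation and tissue digestion within minutes, 6 of 10 were higher (median 0.84), among them Ier2 (1.44), Fos (1.33), Zfp36 (1.22), Junb (1.21) and Dusp1 (0.91). Without cells carrying dendritic or monocyte genes 1 of 9 was higher.

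Tmsb10, which encodes an actin-binding thymosin, averaged 2618 CPM in members and 683 CPM in resident-type cells (1.80). In the S100 and motility list 8 of 12 genes were higher and 0 lower (median 0.80), including S100a4 (1.47), S100a11 (1.41) and Anxa2 (0.98). That count was 5 without NK-bearing cells and 2 without cells carrying dendritic or monocyte genes. Cd52 (1.003), Zyx (0.75), Rac2 (0.61), Pabpc1 (0.57), Eno1 (0.54) and Eef1b2 (0.49) completed the named genes that were higher. In all, 12 genes were higher both than in Ccr2-zero and than in resident-type cells, which is 12 of 26 and 12 of 60. The 2 comparisons, of 1383 and 672 genes tested, share the counts of the members, so their calls are not independent.

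Fewer genes separated the members from Trem2-bearing macrophages, the class with the highest share of Ccr2 detection, and fewer still without cells carrying genes of other lineages. Of 715 genes tested 11 (1.54%) were higher and 23 (3.22%) were lower. The counts were 6 and 9 without DOCA-salt mouse 1, 9 and 10 without DOCA-salt mouse 2, and 7 and 14 without sham mouse 4. Ccl5 (3.76) and Gzma (2.85), which cytotoxic lymphocytes express, were among the highest. Without NK-bearing cells 2 genes were higher and 5 lower, and without cells carrying dendritic or monocyte genes 0 and 0 passed, with 66 at an unadjusted p under 0.05.

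Cd63 averaged 153 CPM in members and 460 CPM in Trem2-bearing cells (-1.33), and Ctsb 1647 and 3649 CPM (-1.14). In the lipid and lysosome list 4 of 8 were lower and 0 higher (median -0.65), including Apoe (-1.01), and 3 of 8 were lower without NK-bearing cells. Ms4a7 (-1.10), Itgb5 (-0.83), C5ar1 (-0.83), Cx3cr1 (-0.70), Ctsz (-0.67) and the Fc receptor gene Fcgr3 (-0.50) were lower as well. S100a10 was higher (677 and 283 CPM, 1.08), as were Tmsb10 (1.04), Ahnak (1.17), Vim (0.94), the leukocyte antigen gene Ptprc (0.80) and Klf2 (0.62). Without NK-bearing cells S100a10 stood at 0.71 and Tmsb10 at 0.61, each with an adjusted p of 0.0556. H2-Aa differed by 0.05 (SE 0.18, adjusted p = 0.947), and 0 of 6 class II genes passed (median 0.11).

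**Figure D3:**
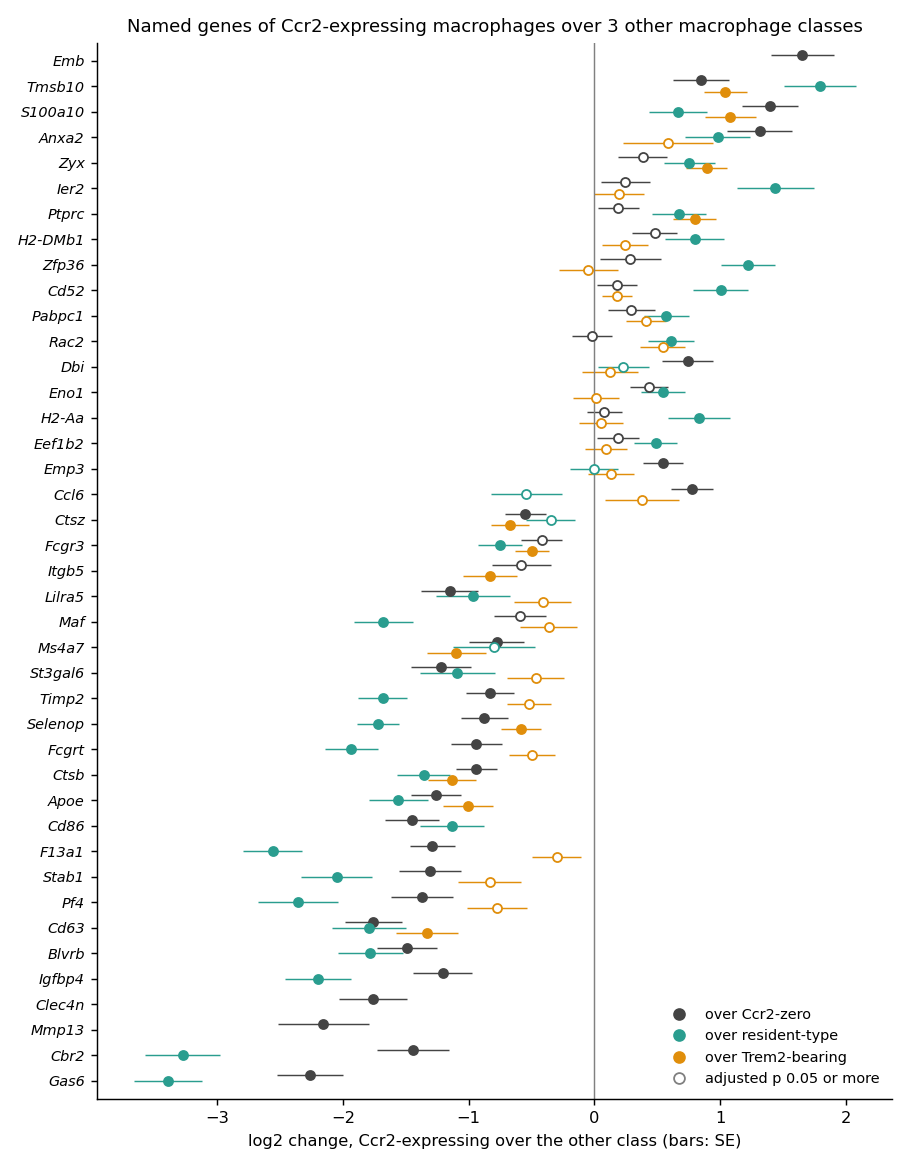
Log2 difference of genes named in the text in Ccr2-expressing macrophages over Ccr2-zero (grey), resident-type (green) and Trem2-bearing (orange) macrophages of the same mice. Bars are standard errors and open points did not pass an adjusted p of 0.05; Gas6 lies farthest to the left, at -3.39 over resident-type and -2.27 over Ccr2-zero cells.

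Between DOCA-salt and sham members, 0 of 677 genes tested (0%) passed an adjusted p of 0.05 in edgeR, 44 had an unadjusted p under 0.05, and DESeq2 also called 0. With 33 sham cells, of which 2 mice supplied 4 each, the precision of this comparison is low. The genes below are those with the smallest p and are given as values. Groups did not overlap in 24 genes with higher DOCA-salt levels (3.55%) and 11 with lower (1.62%).

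Dpep2 (the feature ENSMUSG00000053687, a dipeptidase gene whose symbol a further feature shares) had 207, 265, 338 and 268 CPM in DOCA-salt mice, against 59.5, 32.6, 108 and 53.3 CPM in sham mice. The groups do not overlap, but the sham level rests on 6 UMIs. The log2 difference was 2.32 (SE 0.47, adjusted p = 0.189). Hspa1a (chr17:34969190-34972156, minus strand), which encodes the inducible heat shock protein 70, had 749.9, 1324, 2468 and 1118 CPM in DOCA-salt and 595, 245, 108 and 426 CPM in sham members. These do not overlap either (1.95, SE 0.46, adjusted p = 0.228).

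Ifitm2, an interferon-induced antiviral gene, had 1143, 985, 1082 and 887 CPM in DOCA-salt and 476, 669, 324 and 613 CPM in sham members (0.83, adjusted p = 0.564). Gpx1, of peroxide removal, averaged 2227 ± 398 CPM in DOCA-salt and 1416 ± 275 CPM in sham members (0.69), and Pirb, an inhibitory receptor gene, 384 ± 58.7 and 139 ± 121 CPM (1.22). The DOCA-salt and sham mice do not overlap in these 3 genes. Wfdc17 (1.29), Zfp36 (1.01) and the proton pump gene Atp6v0c (0.97) were the other genes with the smallest p and a positive difference.

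Tsc22d3, which encodes the glucocorticoid-induced leucine zipper and responds to corticosteroid receptors, had 243, 422, 439.6 and 352 CPM in DOCA-salt members, against 952, 751, 432 and 1678 CPM in sham members. The groups overlap by a narrow margin, and the log2 difference was -1.57 (SE 0.36, adjusted p = 0.228). Without NK-bearing cells it was -1.67. Jak1, the cytokine receptor kinase, had 167, 190.3, 135 and 163 CPM in DOCA-salt and 714, 278, 324 and 426 CPM in sham members, which do not overlap (-1.30, adjusted p = 0.234). Fam46a (-1.13), Sema4a (-0.95) and Epsti1 (-0.84) did not overlap either.

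Nkg7 had 361, 265, 0 and 215 CPM in DOCA-salt and 893, 359, 0 and 1278 CPM in sham members (-1.50), and Gzma 1020, 463, 33.8 and 535 CPM in DOCA-salt and 1785, 1110, 0 and 3009 CPM in sham members (-1.53). Both encode parts of the cytotoxic granule. Il2rg, the common chain of the lymphocyte interleukin receptors, differed by -1.35. The groups overlap for Nkg7 and Gzma. NK-bearing cells were 7.38% of DOCA-salt and 18.2% of sham members, and their part in the Il2rg difference was not tested.

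**Figure D4:**
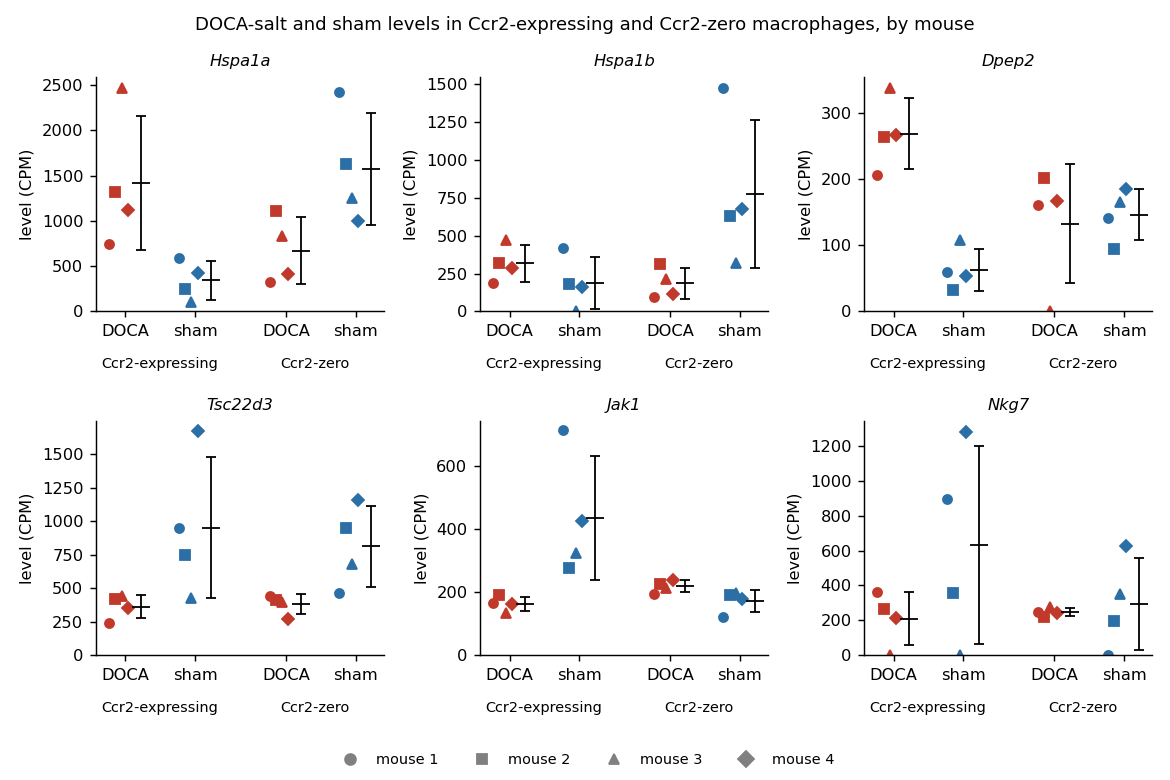
Levels in CPM of Hspa1a, Hspa1b, Dpep2, Tsc22d3, Jak1 and Nkg7 in Ccr2-expressing macrophages (left pair) and Ccr2-zero macrophages (right pair), DOCA-salt left of sham in each pair. Points are mice and bars the mean and SD of 4; Hspa1a is higher in DOCA-salt members than in sham members and on average lower in DOCA-salt Ccr2-zero cells than in sham Ccr2-zero cells.

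In each gene list 0 members passed the test between the groups, so the lists are described by their medians, beside 0.00 over all genes tested, of which 50.4% lay above 0. Of the 11 early response genes 10 lay above 0 (median 0.58), with Zfp36 and Jun (0.87) the largest. In the S100 and motility list 8 of 12 lay above 0 (median 0.28), led by S100a4 (1.35). In the matrix list 4 of 5 (median 0.48, Fn1 0.89), in the lipid and lysosome list 7 of 9 (median 0.26, Lgals3 1.16 and Apoe 0.61), and in the glycolysis list 5 of 7 (median 0.33) lay above 0. Of the class II genes 1 of 6 lay above 0 (median -0.09), with H2-Aa at -0.16 (SE 0.29) and H2-DMb1 at -0.14. Of the resident list 3 genes were tested and 1 lay above 0, with F13a1 at 1.14, Mrc1 at -0.25 and Pf4 at -0.10. Csf1r stood at -0.00 (SE 0.37). Of the 16 genes in the interferon-stimulated list 3 were tested (Ifitm3, Bst2 and Ly6e), and all 3 lay above 0 (median 0.35). The list does not hold Epsti1, named above at -0.84, and 3 genes do not describe the interferon response. Of the 11 corticosteroid targets 1, Tsc22d3, was tested. Without NK-bearing cells the median was 0.79 for early response, 0.45 for S100 and motility (12 of 12 above 0), 0.22 for matrix, 0.34 for lipid and lysosome, 0.16 for glycolysis, 0.43 for interferon-stimulated and -0.34 for class II genes (0 of 6 above 0). At fixed depth the lipid and lysosome median was -0.05, with 1 of 4 above 0.

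Whether the DOCA-salt difference itself differed between members and Ccr2-zero macrophages was tested in 1947 genes, of which 2 (0.103%) passed. Both are inducible heat shock 70 genes of the same cluster, Hspa1a and Hspa1b (chr17:34956436-34959238, minus strand). Their sequences are nearly identical, so the split of reads between them is uncertain. Hspa1a in Ccr2-zero cells had 324, 1114, 828 and 417 CPM in DOCA-salt and 2419, 1630, 1253 and 995 CPM in sham mice. The groups overlap in 1 pair of mice there, and the DOCA-salt mean was below the sham mean, the reverse of the order in the members. The difference of the differences was 3.24 on the log2 scale (SE 0.39, adjusted p = 1.36e-05).

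Hspa1b had 187, 323, 473 and 283 CPM in DOCA-salt and 417, 179.6, 0 and 159.8 CPM in sham members. In Ccr2-zero cells it had 97.1, 312, 215 and 115 CPM in DOCA-salt and 1471, 628, 321 and 679 CPM in sham mice. The difference of the differences was 2.77 (SE 0.42, adjusted p = 5.2e-04). Heat shock and early response RNAs also respond to warm enzymatic digestion, and the part of handling was not tested. Of the early response list 13 of 14 genes lay above 0 in this comparison (median 1.16, against 0.05 over all genes) and 0 passed, and of the class II list 6 of 7 lay above 0 (median 0.63) and 0 passed. Il1b, of inflammatory signalling, differed by 2.80 and Jak1 by -1.46, neither past the threshold. Without NK-bearing cells 6 genes passed, Hspa1a, Hspa1b, Zfp36, Junb, Fos and Ccl4. Without cells carrying dendritic or monocyte genes 9 passed, and 5 of the 14 early response genes were among the 8 of these with a positive difference (list median 1.86). Without sham mouse 4, which supplied 4 of the NK-bearing sham members, 5 genes passed.

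The 16 surface antibodies gave a protein readout of the same cells. It is given as the percentage of a mouse's UMIs over the 16 antibodies in that class, a share in which a rise of one antibody lowers the others. Between members and Ccr2-zero macrophages of the same mouse 0 of 16 antibodies (0%) passed an adjusted p of 0.05, with a smallest adjusted p of 0.0833 in an exact sign-flip permutation test over 8 mice. That test cannot give a p below 0.0078, so a lone antibody could not pass after adjustment over 16. CD80, a costimulatory ligand, was lower on members in 8 of 8 mice, averaging 8.20% in DOCA-salt and 8.23% in sham members, against 10.1% and 12.3% in DOCA-salt and sham Ccr2-zero cells (log2 difference -0.49, exact p = 0.0078, the smallest possible). CD44, a hyaluronan receptor used in leukocyte homing, was higher in 7 of 8 mice, at 31.8%, 30.0%, 28.8% and 35.5% in DOCA-salt and 62.7%, 35.2%, 17.2% and 26.1% in sham members, against means of 24.0% and 17.8% in DOCA-salt and sham Ccr2-zero cells (0.62, exact p = 0.0156). Sham mouse 1, with 4 members, has the highest share by far.

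CD39, an ectonucleotidase, averaged 12.5% in DOCA-salt and 15.7% in sham members, against 15.8% and 22.5% in DOCA-salt and sham Ccr2-zero cells (-0.50, lower in 7 of 8 mice). Its gene Entpd1 was also lower in members (-0.94, adjusted p = 0.0099 in edgeR), and Cd44 stood at 0.39 without passing (adjusted p = 0.369). CD64, the high-affinity Fc receptor, differed by -0.41 (lower in 7 of 8), CD11c by 0.42 (higher in 6 of 8) and CD11b by -0.02 (higher in 4 of 8). With 2 or more Ccr2 UMIs required, CD44 (0.69), CD80 (-0.57) and CD39 (-0.60) passed, each in 8 of 8 mice with an adjusted exact p of 0.0417. Taken as antibody UMIs a cell in place of the share, CD80 differed by -0.28 (lower in 6 of 8 mice, exact p = 0.0547), CD39 by -0.28 (lower in 7 of 8, exact p = 0.0312) and CD44 by 0.83 (higher in 7 of 8, exact p = 0.0156), none past the adjusted threshold.

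Between DOCA-salt and sham members 0 of 16 antibodies (0%) passed, and 0 had an unadjusted exact p under 0.05. The smallest exact permutation p that 4 against 4 mice can give is 0.0286. A lone antibody could therefore not pass after adjustment over 16, and the 0 that passed adjustment says little by itself. The largest mean difference among the abundant ones was in CD11b, an integrin chain of myeloid cells, at 27.8%, 26.9%, 18.4% and 23.0% in DOCA-salt against 12.6%, 18.9%, 13.02% and 14.4% in sham members. The groups overlap in 1 pair of mice (log2 difference 0.71, exact permutation p = 0.0571, adjusted 0.457).

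**Figure D5:**
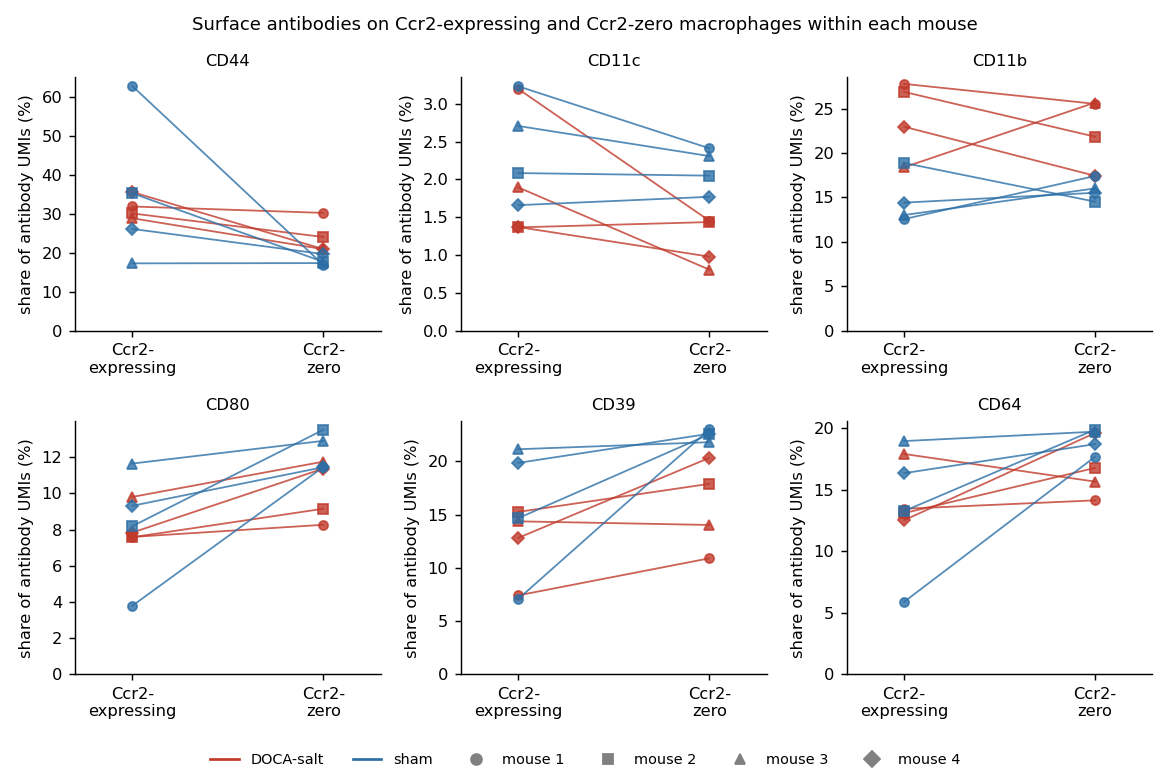
Share of the 16 antibodies' UMIs, in percent, for CD44, CD11c, CD11b, CD80, CD39 and CD64 on Ccr2-expressing (left) and Ccr2-zero (right) macrophages. Each line is a mouse, DOCA-salt in red and sham in blue; the CD80 lines run lower on the left in all 8 mice, and CD44 of sham mouse 1 stands at 62.7%.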

How the data were processed

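The authors deposited filtered Cell Ranger matrices of counts (UMIs per gene or antibody and barcode), on mm10, with Cell Ranger and Seurat 4 named in the submitters' processing notes and format 3.1.0 in the matrix headers. The deposited counts were not normalised, and 31053 genes, 16 surface antibodies and 4 hashtags were read from them. Barcodes with 200 or more genes, up to 10% mitochondrial UMIs and a top hashtag at least 2 times the second were assigned to a mouse, and each hashtag was taken as 1 of the 4 replicates the labels name. Doublets were marked with Scrublet and kept, except in an alternative.

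UMIs were summed over cells per mouse and class, since cells are not replicates, and tested with edgeR 4.0.16 (quasi-likelihood, TMM, low count filter, Benjamini-Hochberg adjustment, threshold 0.05) in R 4.3.3. Class comparisons had the mouse as a block. Levels are counts per 1000000 RNA UMIs. Genes of the rule were left out of the class comparisons and of the difference of differences. In DOCA-salt against sham they were kept. Ccr2, C1qa, C1qb and C1qc are among the 677 genes tested there, each with overlapping groups. DESeq2 1.42.0 was an alternative. Shares and antibodies were tested with exact permutation tests (scipy 1.17.1), and intervals are exact binomial at 95%. The gene tests were tested on simulated data. Hashtag numbers pair no mice between groups.

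Named genes were up to 12 a direction with the largest change among those past the threshold, at a mean of 50 CPM or more and in the same direction in every mouse (groups not overlapping for DOCA-salt against sham); where fewer than 8 passed, the 8 a direction with the smallest p. Up to 5 genes of each list were named, and further genes past the threshold were chosen after their values were seen; a few genes are not reported here. The members and lists were chosen with earlier results of these data known. Positions are from GENCODE M21, which matched 30934 gene IDs. Thinning, antibody shares, mice with under 10 members and cells with 3 or more NK gene UMIs were examined as alternatives, the last and the share of macrophages without Trem2 and resident markers being added after the data were seen.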

Additional observations from a re-analysis of the deposited data

Results flagged for a closer look

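Each of these results is given as a value with no explanation. The DOCA-salt difference of Hspa1a differed between Ccr2-expressing and Ccr2-zero macrophages by 3.24 on the log2 scale, and that of Hspa1b by 2.77, in the edgeR test of the difference itself. Among groups of 4 mice, 4 of 70 examined had a mouse far from the other 3, where chance gives about 1 in 20. The NK1.1 antibody share on members of DOCA-salt mouse 1 was 1.85%, and the CD80 share on members of DOCA-salt mouse 3 was 9.80%. Nkg7 was at 0 CPM in the members of DOCA-salt mouse 3, and Il2rg was at 0 CPM in those of sham mouse 3, which had 4 members.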

How the results depend on the processing

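None of the shares and named genes reversed its direction under any alternative that gave a value. Medians of 3 gene lists given above changed sign: early response against Ccr2-zero was -0.22 without dendritic and monocyte marker cells, and thinned, matrix against Ccr2-zero was 0.12 and lipid and lysosome for DOCA-salt against sham was -0.05. The DOCA-salt minus sham share of leukocytes was 1.20 percentage points, and ranged from 0.845 to 1.43 with each mouse left out. It reached an unadjusted exact permutation p under 0.05 with a hashtag margin of 5 (1.21) or 2 or more Ccr2 UMIs (1.12). That p was also reached without dendritic and monocyte (0.924) or NK (1.19) marker cells. The share of C1q macrophages (9.97) lost it with a margin of 5 (10.3), 500 genes and 5% mitochondrial UMIs (9.30), 16 C1q UMIs (9.35) and thinning (7.20; leave-one-out 7.79 to 11.9), and the share added later (29.3) with thinning (26.1; leave-one-out 26.1 to 31.7).

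Gene counts moved most. DOCA-salt against sham (0) gave 27 without the low count filter and 2 without mice under 10 members. Against Ccr2-zero (101) it was 22 without dendritic and monocyte marker cells, 8 thinned, 61 with no replicate block, and 48 to 102 leaving out a mouse. Against resident-type (148) it was 62, 31 thinned, 239 unfiltered, and 73 to 183. Against Trem2-bearing (34) it was 16 with 16 C1q UMIs, 0 without dendritic and monocyte marker cells, 7 without NK cells, 10 thinned, 117 unfiltered, 11 with no replicate block, and 15 to 37. The difference of differences (2) gave 6 without doublets, 6 with 2 Ccr2 UMIs, 7 with 16 C1q UMIs, 9 without dendritic and monocyte, 6 without NK marker cells, 1 thinned, 17 unfiltered, 6 without mice under 10 members, and 2 to 5. Antibodies of the classes (0) gave 3 with 2 Ccr2 UMIs and 3 with 16 C1q UMIs. DESeq2 gave 0, 98, 181, 45 and 2. Thinning tested fewer genes, and the cause of the other moves was not tested. Of 1533 single-gene values under alternatives, 1393 kept their side of the threshold, 123 lost and 17 gained it; Emp3, Eef1b2 and Fcgr3 lost it most often. No paired analysis was possible between DOCA-salt and sham because hashtag numbers do not link their mice. The 33 sham members limit what the group comparison can show.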
